A study of Canis lupus familiaris with 10 samples.

Results

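The miRNAs miR-192, miR-194 and miR-215 were examined in lymph nodes of dogs with and without diffuse large B-cell lymphoma (DLBCL), a cancer of large B cells that replaces the normal tissue of the node. They were taken by name, as cfa-miR-192, cfa-miR-194 and cfa-miR-215, and all 3 are among the 320 miRNAs with deposited read counts. Small RNA was sequenced from 10 fresh-frozen nodes, with 1 library for each dog. Of these, 6 were from dogs with DLBCL, named here DLBCL1 to DLBCL6, and 4 were from dogs without disease, Healthy2 to Healthy5. The affected nodes were peripheral nodes taken by surgical biopsy from client-owned patients of several breeds and both sexes, whereas the healthy nodes came from young, female, purpose-bred hound crosses after euthanasia. Breed, age, sex and mode of sampling therefore go with the diagnosis and cannot be told apart from it. The ages of the dogs with DLBCL are not given in the sources used here, and a node is a mixture of cells, so that fewer cells of a type and less RNA per cell cannot be told apart either.

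MicroRNAs are short RNAs that are loaded into a silencing complex and pair with messenger RNAs mainly through a few bases near their 5′ end, the seed. miR-192 and miR-215 are close relatives that share a seed and differ at few positions, so that a read could be assigned to either where the counting allows a mismatch, while miR-194 has another seed. In mammals miR-194 is commonly made from a pair of gene copies, one beside miR-192 and the other beside miR-215, and the 3 miRNAs are best known from the epithelium of gut, liver and kidney and as miRNAs that the tumour suppressor p53 can induce. In the RefSeq gene table of the canine assembly UU_Cfam_GSD_1.0, MIR215 and MIR194 are direct neighbours within the gene IARS2, which encodes a mitochondrial isoleucyl-tRNA synthetase, and MIR192 lies in a long non-coding RNA gene (LOC102155550) between ATG2A and EHD1. A single MIR194 gene is listed there. The counts name miR-194 without a gene copy, and reads from copies with the same mature sequence could not be separated.

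The libraries held between 10686441 and 25784861 miRNA reads in DLBCL and between 30432969 and 34709421 in healthy nodes. Of these reads, miR-148a alone took 17.8% to 39.0% in DLBCL and 51.5% to 73.6% in healthy nodes. Levels are therefore given as CPM, the read count in parts per 1000000 of a library size adjusted with edgeR's TMM factors, which set aside the few miRNAs that dominate a library. Beside them stand the authors' TPM values, which take the same parts of all miRNA reads and move with the share of miR-148a. DLBCL3 stood somewhat apart, with a median Pearson's r of 0.89 to the other DLBCL libraries over all miRNAs tested, where the other DLBCL libraries had 0.92 to 0.95. miR-142, a marker of blood-forming cells, was abundant in all nodes, at 4234 to 7521 CPM in DLBCL and 3382 to 5461 CPM in healthy nodes.

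miR-192 was the most abundant of the 3 in every library and rose in DLBCL. It measured 2092 CPM in DLBCL1, 646 in DLBCL2, 2614 in DLBCL3, 1291 in DLBCL4, 2684 in DLBCL5 and 1659 in DLBCL6. In the healthy nodes it measured 546 CPM in Healthy2, 586 in Healthy3, 637 in Healthy4 and 579.8 in Healthy5. All 6 DLBCL libraries lay above all 4 healthy ones, but DLBCL2 did so by a factor of 1.01 only, while DLBCL3 and DLBCL5 were the highest. On the TPM scale the lowest DLBCL library, again DLBCL2 with 908 TPM, was 1.41 times the highest healthy library, Healthy5 with 643 TPM.

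The log2 fold change of miR-192 was 1.64 (standard error 0.43, 95% interval 0.72 to 2.57, adjusted p = 0.0397 from edgeR, by its quasi-likelihood test and adjusted after Benjamini and Hochberg over 247 miRNAs). With an adjusted p under 0.05 and a fold change over 2 it counted as a differentially expressed miRNA (DEM), as did 5.67% of all miRNAs tested, and 3.64% were DEMs with a higher level in DLBCL. Groups that did not overlap in CPM with DLBCL higher were found for 6.88% of the miRNAs tested. A two-sided exact permutation of the group labels on log2 CPM gave p = 0.0143 for miR-192. The DEM call did not hold without DLBCL1 (log2 fold change 1.59, adjusted p = 0.0902 from edgeR) or DLBCL5 (1.50, adjusted p = 0.0605), nor without Healthy2 (1.63, adjusted p = 0.16), Healthy3 (1.69, adjusted p = 0.126), Healthy4 (1.65, adjusted p = 0.144) or Healthy5 (1.57, adjusted p = 0.113). Base quality went with the diagnosis in part, since the study's read statistics list it as higher in DLBCL1, DLBCL2, DLBCL3 and DLBCL5 than in the other 6 libraries. Among these 6, DLBCL4 and DLBCL6 against the healthy nodes, the log2 fold change of miR-192 was 1.32 (adjusted p = 0.0229 from edgeR). In that fit 46 of 259 miRNAs tested were DEMs, against 14 of 247 with all 10 libraries.

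The healthy nodes were close to each other in miR-192. Their highest CPM was 1.17 times their lowest, and the SD of log2 CPM was 0.09, against a median SD of 0.54 over all miRNAs tested in the same 4 libraries. Of all miRNAs tested, 1.21% had a smaller SD in the healthy nodes. This closeness depended on the scale, since in TPM the healthy libraries ranged from 276 to 643, a factor of 2.33. The DLBCL nodes spread over a factor of 4.16 in CPM, with an SD of log2 CPM of 0.78, where the median over all miRNAs tested was 1.07.

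**Figure D1:**
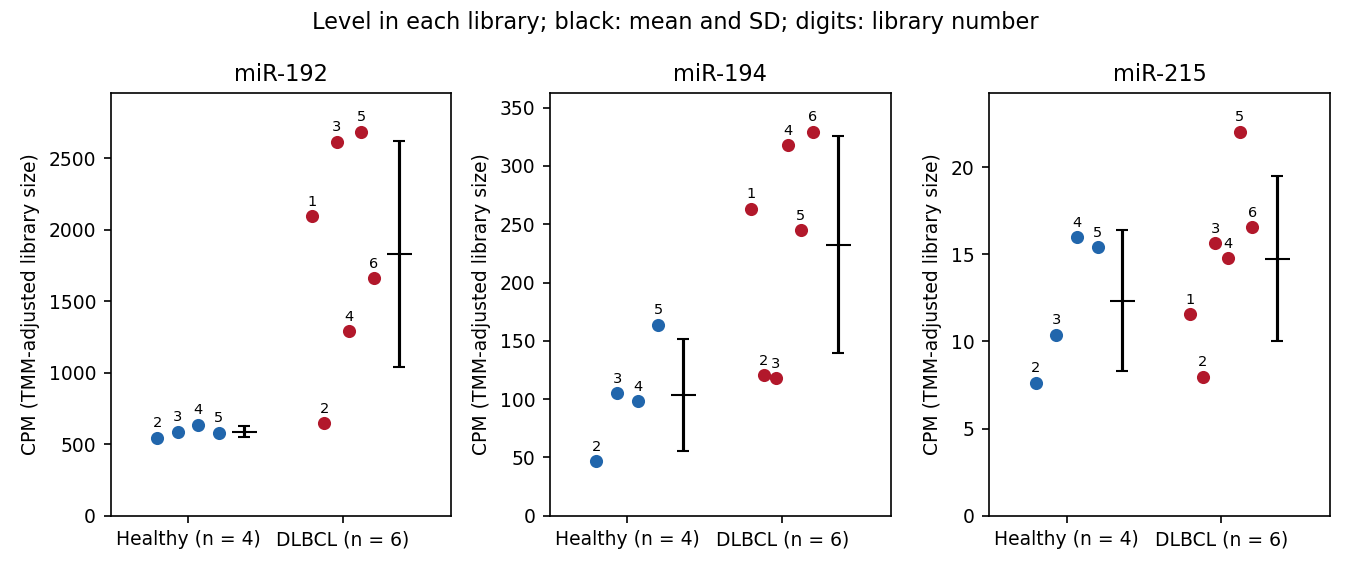
Level of miR-192, miR-194 and miR-215 in CPM (vertical axes, starting at 0) in each of the 4 healthy (blue) and 6 DLBCL (red) libraries, with the library number beside each point and the group mean and SD in black. For miR-192 the healthy libraries sit between 546 and 637 CPM, below every DLBCL library, while the groups overlap for miR-194 and more so for miR-215.

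miR-194, the member with a seed of its own, had a lower level than miR-192 and a positive difference that did not pass the adjusted threshold. It measured 263 CPM in DLBCL1, 121 in DLBCL2, 118 in DLBCL3, 318 in DLBCL4, 245 in DLBCL5 and 329 in DLBCL6. The healthy values were 46.6 CPM in Healthy2, 105 in Healthy3, 98.4 in Healthy4 and 164 in Healthy5. The 4 DLBCL libraries other than DLBCL2 and DLBCL3 lay above every healthy library, and DLBCL2 and DLBCL3 fell between Healthy3 and Healthy5. The log2 fold change was 1.17 (standard error 0.48, 95% interval 0.12 to 2.22, unadjusted p = 0.0318 and adjusted p = 0.139 from edgeR), and the exact permutation test on log2 CPM gave p = 0.0381. Of all miRNAs tested, 26.7% had an unadjusted p under 0.05 in edgeR and 23.5% a p under 0.05 in the permutation test, so that such values are common in this comparison. Within the 6 libraries of lower base quality the log2 fold change of miR-194 was 1.64 (adjusted p = 0.0368 from edgeR). This passes both DEM thresholds, as did 46 of the 259 miRNAs tested in those libraries. A limma-voom fit with quality weights for the samples called it too (1.18, adjusted p = 0.0379), and DESeq2 did not (1.21, adjusted p = 0.0533). Without any one of the libraries the edgeR fit did not call it, with adjusted p-values from 0.0794 to 0.294.

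The healthy nodes differed more among themselves in miR-194 than in miR-192. Their highest CPM was 3.52 times their lowest, and 72.1% of the miRNAs tested had a smaller SD in these 4 libraries. Healthy2, the library with the largest share of miR-148a, was the lowest for all 3 miRNAs, in CPM as in TPM.

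miR-215, the relative of miR-192, was the rarest of the 3 and showed no difference past the threshold. It measured 11.5 CPM in DLBCL1, 7.97 in DLBCL2, 15.6 in DLBCL3, 14.8 in DLBCL4, 22.0 in DLBCL5 and 16.5 in DLBCL6. In healthy nodes it measured 7.62 CPM in Healthy2, 10.4 in Healthy3, 16.0 in Healthy4 and 15.4 in Healthy5. DLBCL5 and DLBCL6 alone lay above every healthy library, and Healthy2 alone lay below every DLBCL library. The log2 fold change was 0.26 (standard error 0.45, 95% interval -0.72 to 1.23, adjusted p = 0.758 from edgeR; exact permutation test on log2 CPM, p = 0.39). This interval includes no change as well as a rise of 2-fold. Its counts ran from 134 reads in Healthy2 to 668 in DLBCL6, so that counting alone gave a relative error of 3.87% to 8.64%, which is less than the spread between dogs. Scaled to all miRNA reads, the log2 fold changes of miR-192, miR-194 and miR-215 were 2.23, 1.86 and 0.89, but on that scale the median over all miRNAs tested moved from 0.13 to 0.82.

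Among the 320 listed miRNAs, miR-192 ranked between 34 and 53 by level in the DLBCL libraries and between 54 and 55 in the healthy ones. miR-194 ranked between 74 and 93 and between 85 and 108, and miR-215 between 129 and 157 and between 139 and 157. The order miR-192, miR-194, miR-215 held in all 10 libraries. Of the summed reads of the 3, miR-192 made up 79.5% to 95.1% in DLBCL and 76.4% to 91.0% in healthy nodes, and together they made up 0.109% to 0.407% of all miRNA reads in DLBCL and 0.0304% to 0.0842% in healthy nodes.

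The ratio of 2 members within a library needs no library size, and a difference in it between the groups is the test of whether their fold changes differ. All 3 pairs were compared, and their p-values were not adjusted over the 3. The ratio of miR-192 to miR-215, the members with a shared seed, was higher in DLBCL. There were 181 reads of miR-192 for each read of miR-215 in DLBCL1, 81.0 in DLBCL2, 167 in DLBCL3, 87.4 in DLBCL4, 122 in DLBCL5 and 100.3 in DLBCL6. In the healthy nodes there were 71.6 in Healthy2, 56.4 in Healthy3, 39.9 in Healthy4 and 37.7 in Healthy5. The groups did not overlap. The log2 ratio averaged 6.88 ± 0.49 (SD, n = 6) over the DLBCL libraries and 5.63 ± 0.44 (SD, n = 4) over the healthy ones. The difference was 1.24, or 2.36-fold, with a 95% interval of 0.49 to 1.97 (exact permutation, two-sided, p = 0.00476, and no smaller p can be reached with 6 and 4 libraries). Over all pairs of the 223 miRNAs tested that had a read in every library, 26.9% reached p under 0.05 in the same test, and the groups did not overlap for 13.6%, so that such a shift is common among the pairs of this comparison. Without any one library the difference was 1.11 to 1.42 and p was 0.00794 to 0.0238 in the same exact test. In the 6 libraries of lower base quality it was 0.91, where p was 0.133 and the exact test cannot go below 0.0667. Reads of one relative assigned to the other would enter this ratio, and this was not tested.

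The ratio of miR-194 to miR-215, whose genes lie side by side in the canine annotation, was also higher in DLBCL on average, with overlapping groups. It was 7.55 to 22.8 in DLBCL, with a median of 17.5, and 6.11 to 10.6 in healthy nodes, with a median of 8.13. DLBCL3 was the single DLBCL library within the healthy range. The difference of the mean log2 ratios was 0.93, with a 95% interval of 0.11 to 1.80 (two-sided exact permutation test, p = 0.0381). It missed the threshold of 0.05 without DLBCL1 (0.81), DLBCL2 (0.93), DLBCL4 (0.83) or DLBCL6 (0.85), each with p = 0.0635 in the exact test, and without Healthy2 (0.80) or Healthy4 (0.81), each with p = 0.0952.

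The ratio of miR-192 to miR-194 showed no difference past the threshold. It was 4.06 to 22.2 in DLBCL and 3.54 to 11.7 in healthy nodes, with medians of 6.65 and 6.03. The difference of the mean log2 ratios was 0.31, with a 95% interval of -0.94 to 1.60 (two-sided exact permutation test, p = 0.59), which is wide enough to include a 2-fold difference in favour of miR-192. DLBCL3 had the highest ratio of all libraries, and without it the difference was 0.0063. In the 6 libraries of lower base quality its sign turned, to -0.46.

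**Figure D2:**
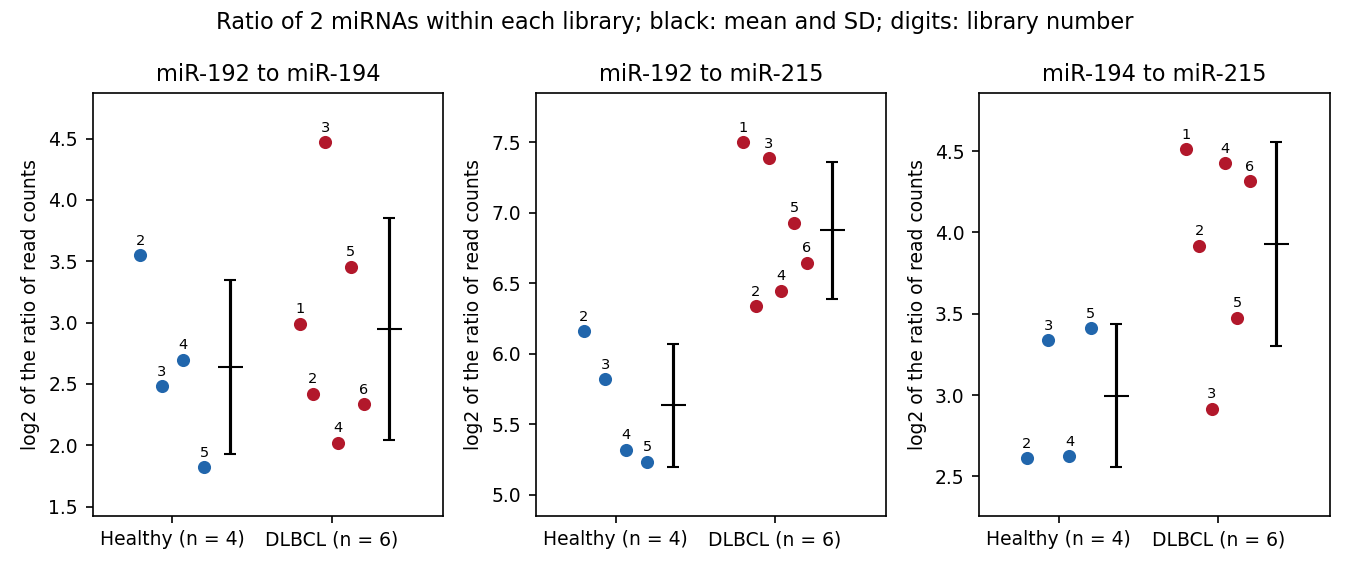
Log2 of the ratio of the read counts of 2 members within each library (vertical axes, not starting at 0) for the 3 pairs, in the 4 healthy (blue) and 6 DLBCL (red) libraries, with the library number beside each point and the mean and SD in black. The groups separate for miR-192 to miR-215, where healthy ratios end at 71.6 and DLBCL ratios begin at 81.0, and overlap for the other pairs.

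Within the 6 DLBCL libraries the members did not share one pattern. DLBCL2 was low for all 3 and DLBCL3 was high for miR-192 and lowest for miR-194. Pearson's r of log2 CPM was 0.79 between miR-192 and miR-215 (exact permutation p = 0.0722, Spearman's rho 0.71, permutation p = 0.136). Adjusted over the 3 pairs after Benjamini and Hochberg, the permutation p of this r was 0.217. Reads of miR-192 assigned to miR-215, or the reverse, would enter this r as well, which was not tested. Without DLBCL2 and DLBCL4, the libraries farthest from the median of miR-192, r was 0.37. Without DLBCL2 alone it was 0.35 (exact permutation p = 0.608), and whether this differs from 0.79 was not tested. Without DLBCL1 r was 0.91 (exact permutation p = 0.0417). Between miR-192 and miR-194 r was 0.23 (exact permutation p = 0.744, rho -0.26, permutation p = 0.658), and it was -0.70 without the same pair of libraries and also without DLBCL2 alone. Between miR-194 and miR-215 r was 0.46 (exact permutation p = 0.378, rho 0.20, permutation p = 0.714), -0.23 without DLBCL2 and DLBCL3 and -0.049 without DLBCL2, while in levels scaled to all miRNA reads it was 0.86 (exact permutation p = 0.0347). On that scale r was 0.55 (exact permutation p = 0.26) between miR-192 and miR-194 and 0.71 (exact permutation p = 0.103) between miR-192 and miR-215. These were 3 relations, and positive correlations with a permutation p under 0.05 in the same 6 libraries were found for 7.75% of all pairs of the 247 miRNAs. No correlation was computed over the 4 healthy libraries.

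**Figure D3:**
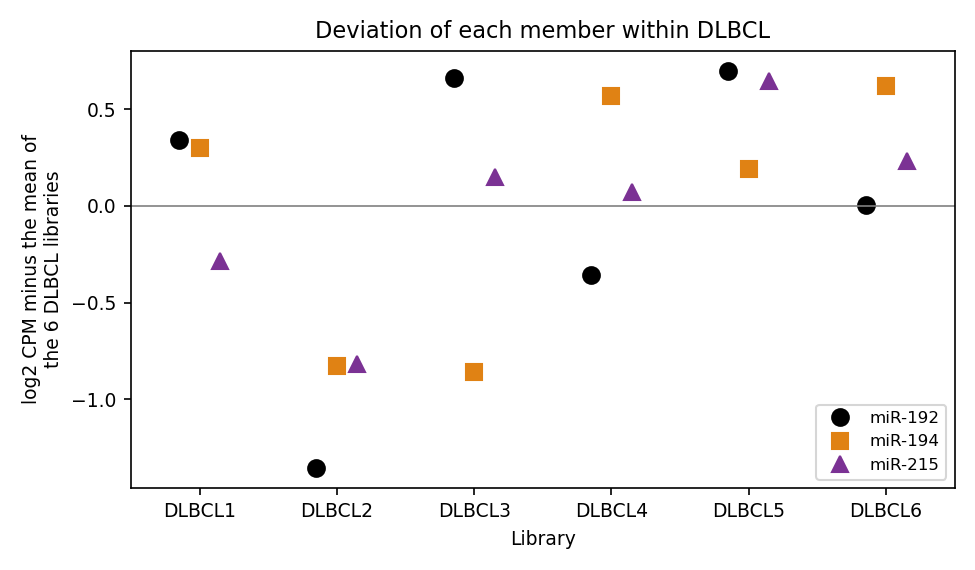
Deviation of log2 CPM from the mean of the 6 DLBCL libraries (vertical axis) for miR-192, miR-194 and miR-215 in each DLBCL library. All 3 are low in DLBCL2, and in DLBCL3 miR-192 is above and miR-194 below the mean, which goes with the ratio of 22.2 in that library.

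The miRNAs closest to each member were taken as those with the highest Pearson's r of log2 CPM over the 10 libraries, which share the difference between the groups. The r within the 6 DLBCL libraries, given beside it, comes from libraries that were also used for the choice and is no separate test. For miR-192 the closest were miR-1839 (r = 0.90), miR-8829 (0.88) and miR-1343 (0.87), which had r of 0.75, 0.66 and 0.76 within the 6 DLBCL libraries. Of these, miR-1839 was a DEM, with a log2 fold change of 2.19 (adjusted p = 0.0397 from edgeR). miR-194 and miR-215 ranked 38 and 45 for likeness to miR-192, with r of 0.63 and 0.60. For miR-194 the closest were miR-106a (r = 0.95), miR-18a (0.91) and miR-17 (0.91), with r of 0.90, 0.73 and 0.85 within DLBCL. These belong to the cluster of miR-17 and to the related cluster of miR-106a, which are known for promoting proliferation of lymphoid cells. Their log2 fold changes of 2.16, 1.78 and 1.61 were positive like that of miR-194 and had adjusted p-values from edgeR of 0.109, 0.118 and 0.128. For miR-215 the closest was miR-130b (r = 0.62), followed by miR-194 (0.61) and miR-192 (0.60), and no miRNA followed it as closely as those named follow miR-192 and miR-194.

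Other miRNAs that p53 is known to raise, by transcription or by processing, were looked at as a list of 11, of which 10 were listed in the counts and 9 were tested. Of these 9, 4 had a positive log2 fold change in edgeR, among them miR-34c and miR-200c, which were negative in limma-voom (-0.95 and -0.19). Of the 9, 1 was a DEM, with a higher level in DLBCL, in edgeR as in DESeq2 and limma-voom. Over all miRNAs tested, DEMs with a higher level made up 3.64% in edgeR, 12.6% in DESeq2 and 10.5% in limma-voom, so that a single DEM in this list is near the share over all miRNAs in the latter tools. In the same 3 tools 0 were lower with an unadjusted p under 0.05. The 9 had a median log2 fold change of -0.07 in edgeR against 0.13 over all miRNAs tested. The DEM was miR-34a, a direct target of p53, with 4.05 to 754 CPM in DLBCL (median 245) and 10.5 to 27.1 CPM in healthy nodes (95% interval of the log2 fold change 1.73 to 6.27, adjusted p = 0.0397 from edgeR). In DLBCL3, which was among the highest for miR-192, miR-34a was below every healthy library. miR-34c, its relative, named after its values were seen, had a log2 fold change of 0.91 (adjusted p = 0.672 from edgeR). Its highest value, 207 CPM, was in DLBCL4, while its DLBCL median of 6.15 CPM lay below every healthy library (11.1 to 37.2 CPM). DESeq2 gave no p-value for miR-34c. The abundant members miR-143, miR-145 and miR-16 had log2 fold changes of -0.07, -0.30 and -0.27, with adjusted p-values from edgeR of 0.939, 0.769 and 0.707.

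Markers of epithelium, where the members are best known, were scarce. Of 8 listed, 4 passed the filter on low counts, of which 3 had a positive log2 fold change in edgeR, with a median of 0.79. In limma-voom the values were negative for miR-200c (-0.19), miR-141 (-0.29), miR-203 (-0.17) and miR-375. The DLBCL median was below the healthy median for miR-203 (6.62 against 10.3 CPM), miR-375 (0.66 against 1.90) and miR-141 (3.73 against 4.56). For miR-200c the medians were 13.3 and 12.8 CPM. DESeq2 gave no p-value for miR-200c and miR-375. Among the 4 tested, 0 were DEMs and 0 had an unadjusted p under 0.05 in edgeR. DESeq2 and limma-voom also gave 0 DEMs, but 1 miRNA under that unadjusted p in opposite directions, miR-429 with a positive value in DESeq2 (log2 fold change 4.32, adjusted p = 0.11) and miR-375 with a negative one in limma-voom (-1.90, adjusted p = 0.125). The summed level of the 8 was 22.4 to 37.0 CPM in healthy nodes. It exceeded that range in DLBCL3, with 203 CPM, and in DLBCL5, with 71.3 CPM, which were also the highest libraries for miR-192, and was 19.0 to 30.5 CPM in the other 4 DLBCL libraries. miR-200c, the most abundant of the miR-200 family, was at 10.3 to 108 CPM in DLBCL, highest in DLBCL3, and 8.93 to 19.7 CPM in healthy nodes. miR-375 reached 72.6 CPM and miR-200a 14.5 CPM in DLBCL3, and miR-203 reached 48.7 CPM in DLBCL5, against at most 7.46, 0.21 and 11.6 CPM in healthy nodes. miR-200b, miR-429 and miR-205 did not exceed 0.52 CPM in any library, and miR-141 did not exceed 7.30 CPM. miR-122, the dominant miRNA of hepatocytes, was at 0.753 to 11.1 CPM in DLBCL and 0.257 to 2.28 CPM in healthy nodes (log2 fold change 1.79, adjusted p = 0.228 from edgeR). miR-192 itself was at 546 CPM or more in every library, above the sum of the epithelial list in each, and the part of epithelium in the difference of miR-192 was not tested. miR-200c and miR-141 are on the list of p53-responsive miRNAs as well.

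Markers of red blood cells moved with the same contrast. Of 4 entries listed, 4 were tested and 3 were DEMs with a higher level in DLBCL in edgeR (miR-451, miR-486 and miR-486-3p). Their median log2 fold change over the 4 was 4.70, and 3.64% of all miRNAs tested were such DEMs. By name miR-486 and miR-486-3p belong to the same miRNA, so that they are not separate markers. Their levels were nearly the same, with DLBCL medians of 1361 and 1346 CPM and the highest values, 17490 and 17133 CPM, in DLBCL3. limma-voom called all 4, and DESeq2 called miR-451 and miR-144 and gave no p-value for miR-486 and miR-486-3p. The summed level of the 4 entries was 5740.2 to 48886 CPM in DLBCL and 873 to 1278 CPM in healthy nodes, without overlap. The part of red blood cells in the rise of miR-192 was not tested. Of 6 miRNAs of blood-forming cells and lymphocytes, 6 were tested and 2 were DEMs with a lower level, as were 2.02% of all miRNAs tested, with a median log2 fold change of -0.34, and 0 were higher with an unadjusted p under 0.05 in edgeR, DESeq2 or limma-voom. Those 2 were miR-150, a miRNA of mature resting lymphocytes (log2 fold change -2.97, adjusted p = 0.00687 from edgeR), and miR-146a, a brake on NF-kB signalling (-1.46, adjusted p = 0.0397). A positive log2 fold change in edgeR was found for 3 of the 6, namely miR-142 (0.22), miR-155 (0.44) and miR-223 (0.09). Their adjusted p-values from edgeR were 0.697, 0.568 and 0.948, and miR-223 was negative in limma-voom (-0.31). The summed level of the 6 was 12545 to 27055 CPM in DLBCL and 20645 to 38768 CPM in healthy nodes, and its part in the difference of miR-192 was not tested.

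**Figure D4:**
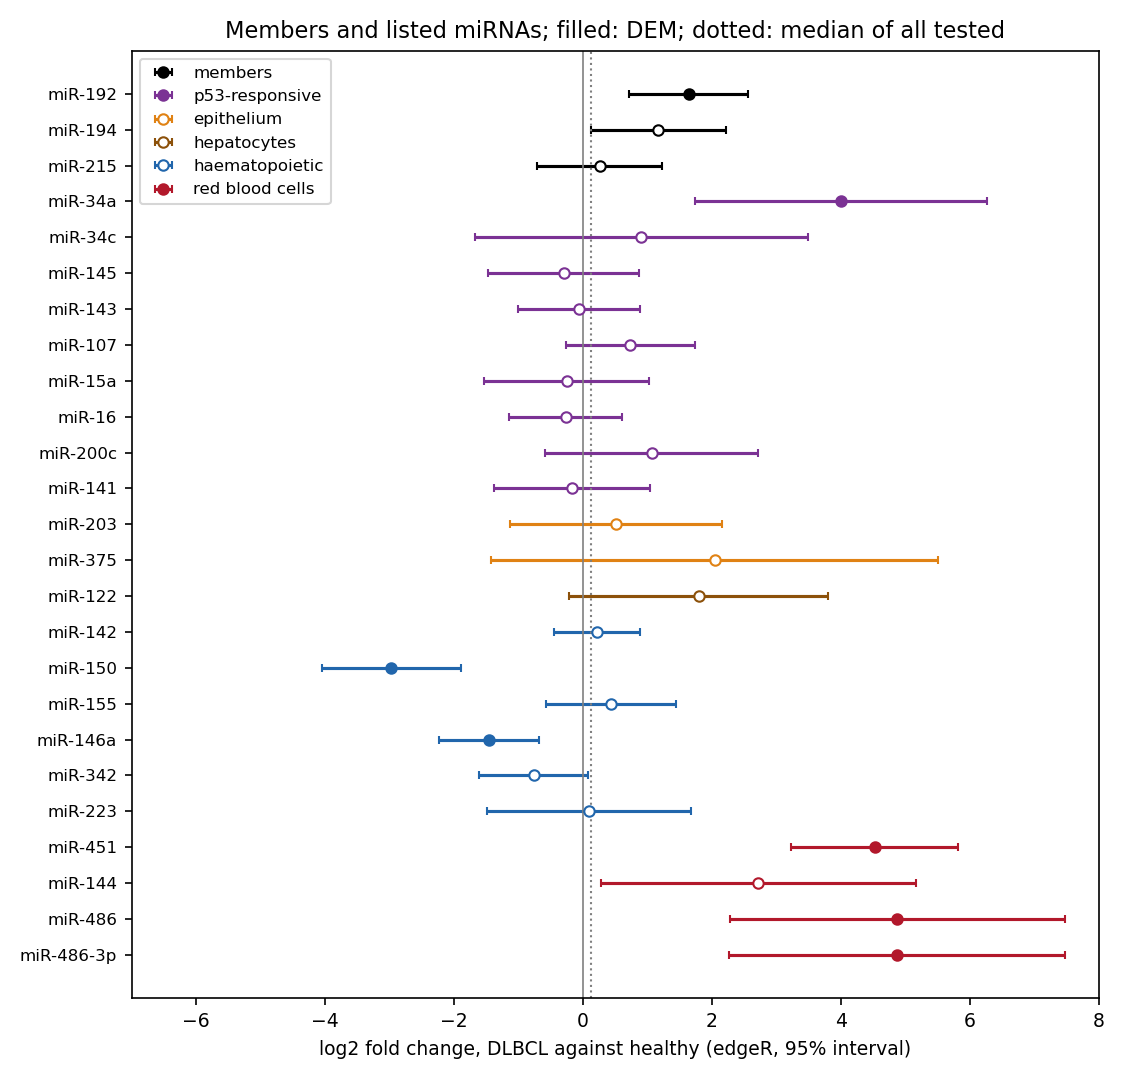
Log2 fold change in edgeR, DLBCL against healthy, with the 95% interval worked out from its test (horizontal axis). Shown are the 3 members (black) and the tested miRNAs of the 5 lists, by colour. Filled points are DEMs, the solid line marks no change and the dotted line the median of all 247 miRNAs tested, 0.13. The point of miR-192 is filled at 1.64, and those of miR-194 and miR-215 are open at 1.17 and 0.26.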

How the data were processed

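Small RNA reads were trimmed, mapped with Bowtie 0.12.9 (the submitters' processing notes name the canine build CanFam3.1), cleared of repetitive and non-miRNA sequences, and counted by miRDeep2 against miRBase by the authors. They deposited read counts without normalization, and TPM values, which are the same counts in parts per 1000000 of the library's miRNA reads. Fold changes were obtained from the counts in edgeR 4.0.16 (R 4.3.3) after filterByExpr by group and TMM scaling, with the quasi-likelihood test and Benjamini-Hochberg adjustment over the 247 miRNAs kept. The standard error of a log2 fold change was worked out as its size divided by the square root of the test's F statistic. Its 95% interval was then taken from the t distribution with the test's degrees of freedom. A DEM had an adjusted p under 0.05 and a log2 fold change beyond 1 in size. Log2 CPM values carry a prior count of 2. DESeq2 1.42.0, which the authors used in version 1.12.0, and limma 3.58.1 (voom with sample quality weights) were alternatives. Single values, ratios of read counts and correlations were tested by exact permutation (210 splits, or 720 pairings) in Python 3.11.15, two-sided, and the 95% interval of a ratio holds the shifts that this test does not reject. The procedures were tested on simulated data. The healthy and affected libraries were grouped by their labels. Each was a separate dog, and libraries of a group differed by at least 2115 in chi-squared per degree of freedom, far above sampling noise. Depth was 10686441 to 34709421 miRNA reads per library. Relative counting errors (1 divided by the square root of the count) cover counting only, because PCR copies of a molecule are counted as reads. The 3 miRNAs, the lists and the tests were chosen with earlier results of these data known. Named beside the members are the 3 miRNAs with the highest correlation to each over the 10 libraries, and, of the lists, DEMs, defining markers and up to 3 more of high level. All tested list members are plotted. Mature sequences were not used here.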

Additional observations from a re-analysis of the deposited data

How the results depend on the processing

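The log2 fold changes of miR-192, miR-194 and miR-215 were positive under every alternative. miR-192 was not a DEM with DESeq2 size factors (1.71, adjusted p = 0.0516 from edgeR) or with the total without miR-148a (1.42, adjusted p = 0.0504), an alternative added after seeing the data. It lay between 1.50 and 1.84 with each library left out, with adjusted p-values of 0.021 to 0.16. miR-194 was called by limma-voom (1.18) and in the libraries of lower base quality (1.64) and lay between 0.89 and 1.40 with each library left out, and miR-215, between 0.09 and 0.40, was called nowhere. The number of DEMs was 14, and 8 with DESeq2 size factors, 23 with total miRNA reads, 45 with DESeq2, 46 with limma-voom and 46 in the lower quality libraries, and 1 to 23 with each library left out. Of these, 9 of 14 were higher in DLBCL, against 3 of 8 with DESeq2 size factors and 22 of 23 with total reads.

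Replicate numbers 2 to 5 occur in both groups but name different dogs, and deviations of same-numbered libraries correlated at 0.26, -0.01, -0.30 and -0.33, with 1 of the 4 healthy libraries closest to its own number. With the replicate block over these 8 libraries miR-192 was at 1.42 (adjusted p = 0.258 from edgeR) and 1 miRNA was a DEM. The same 8 libraries without the number gave 1.62 (adjusted p = 0.109) and also 1 DEM, a fit added after seeing the data.

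In the lower quality libraries the differences in log2 ratio were -0.46 for miR-192 to miR-194, 0.91 for miR-192 to miR-215 and 1.37 for miR-194 to miR-215, with too few libraries to reach the threshold. Leaving out one library gave 0.0063 to 0.61, 1.11 to 1.42 and 0.80 to 1.13. Within DLBCL, r ranged from -0.70 to 0.69 for miR-192 with miR-194, from 0.35 to 0.91 for miR-192 with miR-215 and from -0.049 to 0.72 for miR-194 with miR-215 with each library left out, and on total reads it was 0.55, 0.71 and 0.86. Where values moved, the cause was not tested. Counting error was at most 8.64% for any member, below the spread between dogs.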
